A study of Mus musculus with 30 samples.

Results

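The 33 genes described here encode proteins of the synapse and of the mature neuron. They were taken by symbol from a fixed list, chosen with earlier results of these data known. All 33 were found among the 14997 genes of the table of captured tissue and among the 26005 genes of the table of cultured spheres. They were ordered by 8 roles: the vesicle fusion machinery (Snap25, Vamp2, Stx1a, Syt1, Syt4, Cplx1, Cplx2), synaptic vesicle proteins (Syp, Sv2a, Sv2b, Syn1, Syn2, Rab3a, Rab3c), active zone scaffolds (Rims1, Bsn), adhesion molecules (Nrxn2, Nrxn3, Nlgn1), postsynaptic proteins (Dlg4, Shank1, Camk2a, Camk2b), the neuronal cytoskeleton (Nefl, Nefm, Nefh, Map2, Stmn3), neuronal cytosolic proteins (Uchl1, Eno2, Sncb, Sncg) and the splicing regulator Rbfox3. The captured samples were 20 libraries of laser-captured midbrain floor plate from mice of genotype Lmx1aCreERT2; R26TRAPC, with 4 libraries at embryonic day 11 (E11), 5 at E13, 5 at E18 and 6 at postnatal day 70 (P70). Lmx1aCreERT2 is a Cre recombinase under control of the floor plate gene Lmx1a that acts only when tamoxifen is given, and R26 denotes the Rosa26 locus, where a reporter can be switched on. All captured groups carried both alleles. RNA was converted and amplified by the Smart-seq2 protocol, which reads whole transcripts and marks neither strand nor molecules. The other 10 libraries came from adult spheres grown in vitro, 5 named MB and 5 named FB, with no genotype in their labels. The design text describes ependymal spheres from the midbrain aqueduct and neurospheres from the lateral ventricle, but leaves the names MB and FB unexplained. The title of the series sets the study in the timing of neurogenesis and ependymal maturation, and each age was compared here with the age before it, and MB with FB spheres.

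Chemical synapses release transmitter when a vesicle fuses with the presynaptic membrane. Fusion is driven by SNARE proteins on vesicle and membrane, triggered by calcium bound to synaptotagmins and restrained or promoted by complexins, while synapsins and Rab3 proteins handle the vesicle pool. Neurexins on the axon and neuroligins on the dendrite join the contact, and behind the postsynaptic membrane Dlg4 and Shank scaffolds hold receptors and the calcium-dependent kinase made from Camk2a and Camk2b. Neurofilaments and microtubule proteins build the axon and dendrites, and in the ventral midbrain the neurons born from the floor plate include dopamine neurons.

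Promoter sequence is shown for 3 members on the X chromosome and chromosome 6. Syn1 was the member whose window held a match to the element of REST, a repressor that silences neuronal genes outside neurons, and Eno2 and Syp had the 2 largest rises between E13 and E18. The sequences are the 250 bases before the RefSeq start site, 5′ to 3′ on the strand of the gene, on build GRCm38.p6: chrX:20920919-20921168 on the minus strand for Syn1, chr6:124769674-124769923 on the minus strand for Eno2 and chrX:7638330-7638579 on the plus strand for Syp. Capitals in the Syn1 sequence mark first the match to the REST element and then the match to the cyclic AMP response element, both described after the sequences.
Syn1: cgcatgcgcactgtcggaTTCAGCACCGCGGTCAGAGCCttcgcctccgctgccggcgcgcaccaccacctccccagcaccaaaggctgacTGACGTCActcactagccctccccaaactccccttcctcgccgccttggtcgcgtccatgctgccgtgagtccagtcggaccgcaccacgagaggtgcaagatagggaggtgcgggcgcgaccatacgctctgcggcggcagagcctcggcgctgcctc
Eno2: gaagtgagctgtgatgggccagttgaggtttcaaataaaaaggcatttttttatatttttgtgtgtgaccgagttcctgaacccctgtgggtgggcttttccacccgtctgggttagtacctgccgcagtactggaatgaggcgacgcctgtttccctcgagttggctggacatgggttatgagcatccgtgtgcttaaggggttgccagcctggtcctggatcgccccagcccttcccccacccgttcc
Syp: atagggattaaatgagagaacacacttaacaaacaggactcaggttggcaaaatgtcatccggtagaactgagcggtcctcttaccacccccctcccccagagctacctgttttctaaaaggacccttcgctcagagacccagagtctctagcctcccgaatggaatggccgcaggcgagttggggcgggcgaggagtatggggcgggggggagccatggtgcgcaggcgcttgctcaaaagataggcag

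RefSeq windows of 300 bases, from 250 before to 50 after a start site, were held for 24 of the 33 members (35 windows). The REST element RE1 was searched by its consensus on both strands with at most 3 mismatches, and the cyclic AMP response element CRE as TGACGTCA without mismatch. In the Syn1 window an RE1 match with 2 mismatches began at position -232 from the start site and a CRE match at position -159, without overlap. No other member window matched either motif. Among all 32851 windows of that length, 24 (0.0731%) held an RE1 match and 588 (1.79%) a CRE match. The palindrome of nuclear factor I, the family named in the series title, was searched by its consensus with at most 1 mismatch, which 298 windows (0.907%) held and no member window did. A match describes letters and not binding, and the mismatch limits were chosen after seeing the data.

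Captured levels are given in units, the deposited values, whose small steps are those of reads scaled to transcript length and library size, and sphere levels in CPM (counts scaled to library size). Genes with a mean under 1 unit at an age have no captured value at that age. Whole reads recovered behind the captured values came to 2978083 to 4562621 per library before birth and 1297768 to 2960133 at P70, and sphere libraries held 6327198 to 9291311 counts. The floor plate genes Lmx1a and Foxa2 were present at every captured age, and the mean of Lmx1a was 70.6 units at E11 and 4.9 at P70. Corin, also taken as a floor plate marker, had means of 46.1, 31.8 and 32.2 units at E11, E13 and E18 and was not listed at P70. In the spheres Foxa2 did not exceed 0.865 CPM in MB and 0.119 in FB, and Lmx1a did not exceed 0.786 in MB and 1.55 in FB. The labels name no animal or culture behind a library. A p-value therefore reflects only how these samples varied, and is too small if several captures came from the same mouse. In bulk tissue, fewer cells of a type and less RNA per cell cannot be told apart. The 3 comparisons of neighbouring ages share samples, since E13 and E18 each enter 2 of them.

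All 33 members were listed at E18, 31 at P70, 29 at E13 and 23 at E11, and 22 were listed at all 4 ages. The 10 not listed at E11 included Cplx1, Nrxn3, Nlgn1, Dlg4 and Camk2b, and the active zone organizer Rims1 was listed at E18 alone, with a mean of 1.46 ± 0.485 units (SD, n = 5). Sv2b and Rims1 were not listed at P70. No member had its highest mean at E11. The highest mean fell at E13 for 5 members (Sv2b, Rab3c, Nefl, Nefm and Map2), at E18 for 14 and at P70 for 14. On this per-length scale Uchl1 and Stmn3 had the highest means of the members at each of the 4 ages, with 294 ± 35.6 and 122 ± 76.9 units at E11 (SD, n = 4) and 654 ± 118 and 274 ± 121 at P70 (n = 6). Summed over the 22 members listed at all 4 ages, the E11 libraries spanned 459.5 to 773 units, the E13 libraries from 1178 to 2894, the E18 libraries from 1849 to 3658 and the P70 libraries from 1401 to 2490.2. Every E13 library lay above every E11 library in this sum, and E13, E18 and P70 overlapped. Uchl1 and Stmn3 made up a large part of the sum, so it does not stand for the members alike. Taken singly, Snap25, Stx1a, Syp and Syn1, among others, overlapped between E11 and E13, while Vamp2 and Rab3a, among others, did not.

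**Figure D1:**
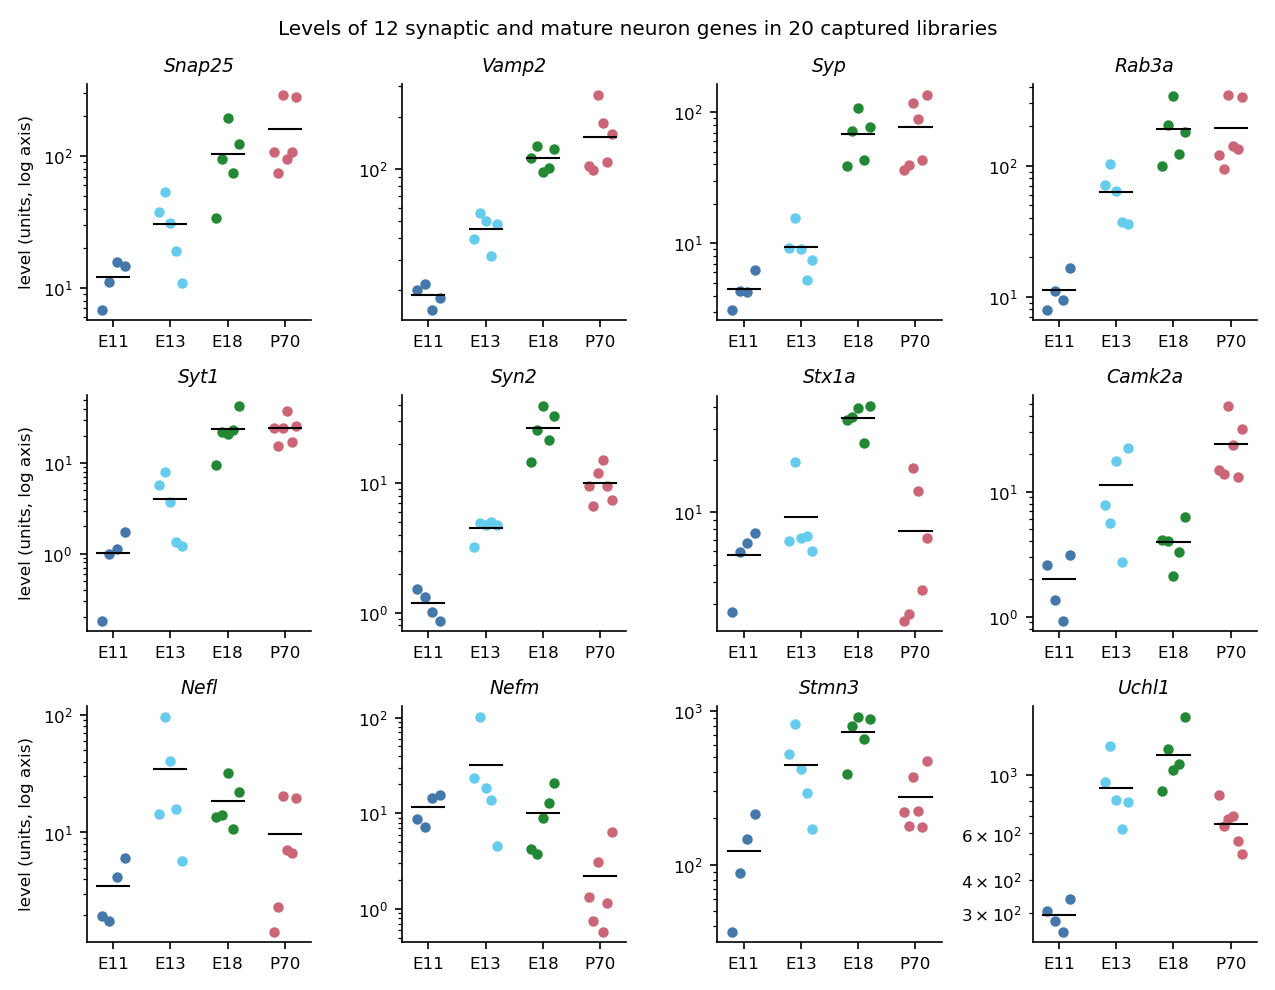
Levels of 12 members in the 20 captured libraries (log axis, units as deposited), 1 point per library, with a black line at the mean of each age. Vamp2 and Uchl1 show E13 libraries wholly above E11, Stx1a stands highest at E18, Camk2a is lower at E18 than at P70, and Nefl and Nefm have 1 E13 library far above the rest.

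Between E11 and E13, 9 of the 23 members that could be tested rose and 0 fell (limma; at an unadjusted p under 0.05, 17 were higher and 0 lower, and edgeR on the recovered reads of 14 members called 9 higher and 0 lower). The risers by limma were the vesicle SNARE Vamp2, the vesicle genes Syn2, Rab3a and Rab3c, the kinase Camk2a, the light neurofilament Nefl, the microtubule proteins Map2 and Stmn3, and the ubiquitin hydrolase Uchl1. Of these, Syn2, Rab3a and Camk2a had no recovered reads and were not tested by edgeR. The 9 edgeR calls included Syp, Sv2a and Eno2, which did not pass by limma. Over all 11567 genes tested, 9.26% rose and 11.2% fell. The median log2 difference of the members was 1.14 against -0.04 for all genes, and 22 of the 23 members had a positive difference. By role, 3 of 7 vesicle proteins, 3 of 4 cytoskeletal genes, 1 of 6 genes of the fusion machinery and the only testable postsynaptic gene rose, while the single adhesion gene tested, Nrxn2, and Rbfox3 did not pass. Each of the 9 rises passed in each of the 16 alternative settings in which it could be tested, leaving out each library among them, and 9 further members (Snap25, Syt1, Syt4, Syp, Sv2a, Syn1, Nrxn2, Eno2 and Rbfox3) passed as rises in some of them. A weight per library gave 18 members higher, and over all genes raised the counts alike, from 1071 to 2218 higher and from 1293 to 2618 lower.

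Between E13 and E18, 17 of 29 members rose and 1 fell, against 22.2% and 24.8% of the 11797 genes tested. The median difference was 1.46 for the members and -0.04 for all genes. The risers were 6 of 7 genes of the fusion machinery, 5 of 7 vesicle proteins, all 3 adhesion genes, the kinase subunit Camk2b, and Eno2 and Sncg among the cytosolic proteins. Of the 4 cytoskeletal genes tested, 0 passed in either direction by limma, also at an unadjusted p under 0.05, and by edgeR on recovered reads (median -0.24). Without E13 replicate 5, however, Nefm passed as a fall (-1.63, limma adjusted p = 0.0219), and without E13 replicate 2 Stmn3 passed as a rise (1.11, adjusted p = 0.0414). The vesicle protein Sv2b was the member that fell. The rises included Vamp2, Syn2 and Rab3a, which had also risen between E11 and E13. Of the 18 calls, that of Syt4 was lost under 8 settings and the other 17 were kept under all 17 settings in which each could be tested.

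From E18 to P70, 2 of 31 members rose, Camk2a and the postsynaptic scaffold Shank1, and 10 fell. Of the 12353 genes tested, 16.8% rose and 23.9% fell, and the median difference was -0.33 for the members and -0.14 for all genes. The 10 that fell were Stx1a of the fusion machinery, Syn2 and Rab3c of the vesicle proteins, the active zone scaffold Bsn, the neuroligin Nlgn1, the cytoskeletal genes Nefm, Map2 and Stmn3, Uchl1 and Rbfox3. Rescaling each library by its median ratio moved the median of all genes to 0.01 and the rises among all calls from 41.3% to 54.7%. Under that scaling 4 members rose and 8 fell with a median of -0.16, the calls of Bsn and Rbfox3 being lost and Cplx1 and Nrxn2 passing as rises. The library set mattered as well: the call of Shank1 was lost without E18 replicate 3 (log2 difference 0.83, limma adjusted p = 0.0544) or E18 replicate 4 (0.88, adjusted p = 0.0541), and with a weight per library (0.71, adjusted p = 0.087), and that of Nefm without E18 replicate 5 (-1.48, adjusted p = 0.0556). Both Bsn and Rbfox3 lost their calls without E18 replicate 2 (-0.73 and -0.95), 3 (-0.62 and -0.92) or 5 (-0.64 and -0.93) and without P70 replicate 1 (-0.69 and -0.82) or 2 (-0.77 and -0.78), and Bsn also without P70 replicate 5 (-0.62). In a fit of only the 2 ages both were lost as well (adjusted p = 0.0847 and 0.0752).

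**Figure D2:**
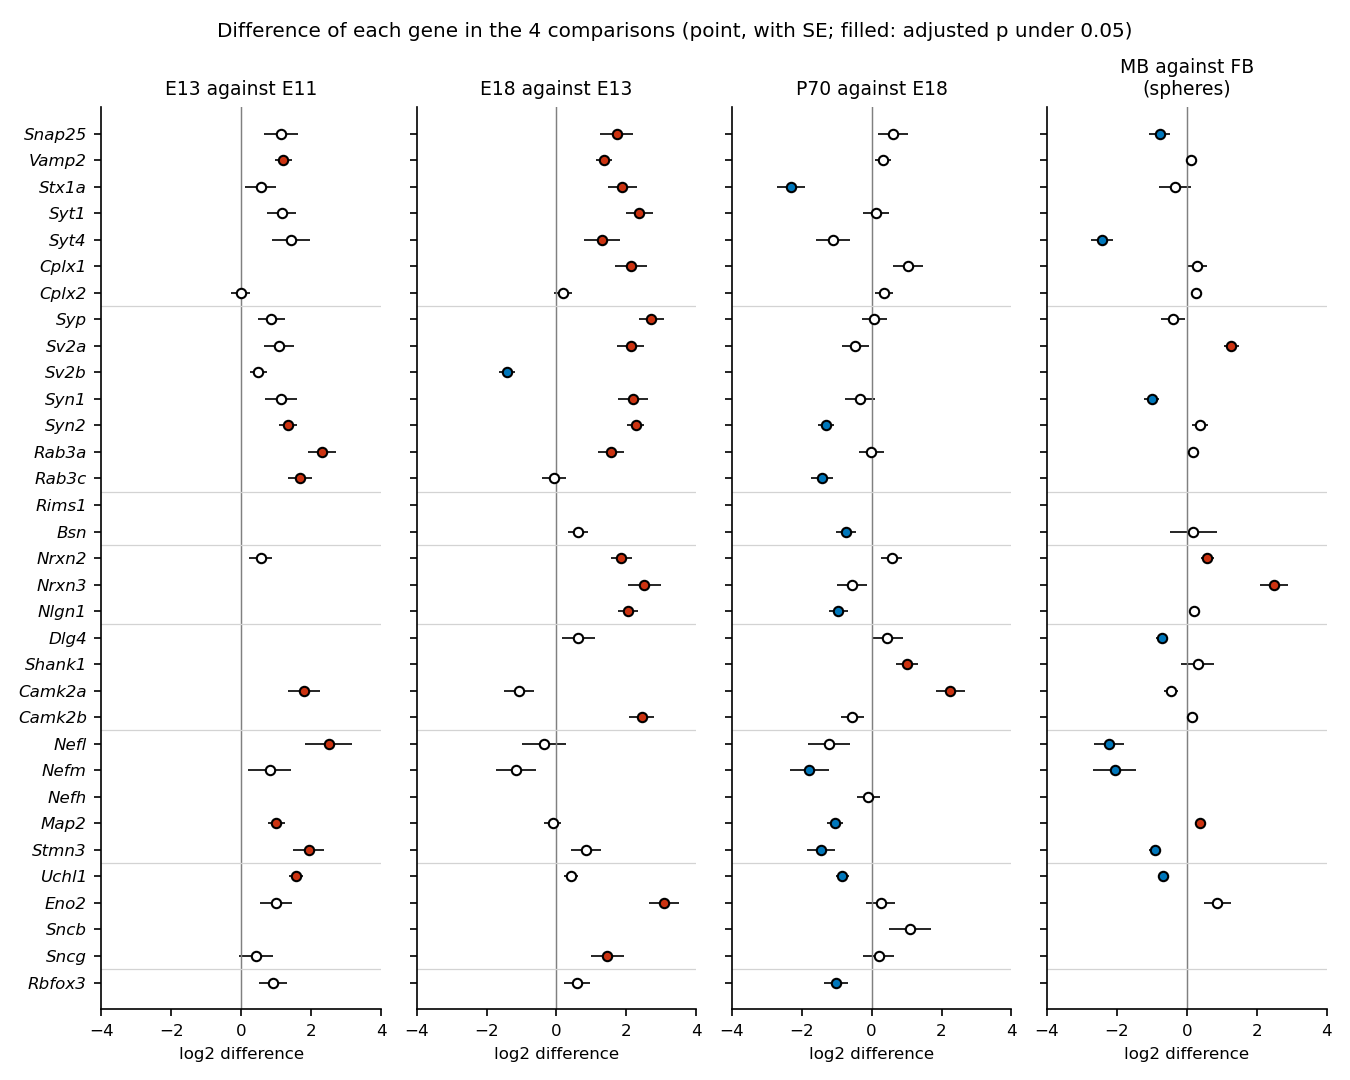
Difference of each member in the 4 comparisons (log2 scale, first group minus second; on log2(value + 1) in captured libraries), with its standard error as a bar; filled points passed an adjusted p of 0.05, red higher and blue lower, and members without a point were not tested. Rises predominate in the middle embryonic comparison, with 17 filled red points, and falls from E18 to P70, with 10 filled blue points; grey lines part the roles.

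Snap25, a SNARE of the presynaptic membrane (chromosome 2 from 136713453 to 136782428 on GRCm38), measured 6.84, 11.1, 15.6 and 14.6 units at E11, then 38, 53.4, 31, 19.1 and 10.9 at E13, then 33.9, 95.7, 195, 74.8 and 123 at E18, and 74.9 to 289.7 at P70 (median 108). Each E18 library but replicate 1 lay above every E13 library, and the lowest E11 library was the lowest of the series. Snap25 rose between E13 and E18 (log2 difference 1.72, SE 0.46, limma adjusted p = 0.00409). Its differences of 1.14 between E11 and E13 (adjusted p = 0.106) and 0.61 from E18 to P70 (adjusted p = 0.28) did not pass. Vamp2, the SNARE of the vesicle membrane, measured 20.2, 21.7, 15.5 and 18.1 units at E11, then 39.7, 55.8, 50.3, 31.7 and 47.9 at E13, then 116, 136, 96.7, 101 and 130.2 at E18, and 99.4 to 266 at P70 (median 135). No library of E11, E13 or E18 overlapped with a library of the age before it. It rose in both embryonic intervals (log2 difference 1.20, SE 0.24, limma adjusted p = 0.00132; log2 difference 1.36, SE 0.23, limma adjusted p = 5.38e-05), and its difference at P70 was 0.32 (adjusted p = 0.252).

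Stx1a, the syntaxin that pairs with Snap25, measured 2.7, 5.93, 6.71 and 7.68 units at E11, then 6.9, 19.4, 7.16, 7.35 and 6.01 at E13, then 33.8, 34.9, 39.2, 24.9 and 40.3 at E18, and 2.42 to 17.9 at P70 (median 5.36). All 5 E18 libraries stood above all E13 and all P70 libraries. It rose at E18 (log2 difference 1.89, SE 0.41, limma adjusted p = 0.000772) and fell by P70 (log2 difference -2.31, SE 0.40, limma adjusted p = 9.88e-05), the largest fall of any member in that comparison. The calcium sensor Syt1 rose from 4.01 ± 2.9 units at E13 to 23.7 ± 11.9 at E18 (SD, n = 5 each; log2 difference 2.37, SE 0.39, limma adjusted p = 3.98e-05). It measured 24.2 ± 7.96 at P70 (n = 6). Between E11 and E13 its difference of 1.16 did not pass (adjusted p = 0.0509).

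Syt4, a synaptotagmin of secretory granules and dendrites, measured 1.88, 4.4, 12.7 and 24.5 units at E11, then 51.2, 49.7, 19.1, 13.7 and 7.31 at E13, then 32, 59.2, 82.3, 46.9 and 75.5 at E18, and 18.6 to 34.9 at P70 (median 26.8). E13 replicates 1 and 2 lay within the E18 range while E13 replicates 3 to 5 lay below it. The rise at E18 (log2 difference 1.31, SE 0.51, limma adjusted p = 0.0395) was accompanied by adjusted p-values between 0.0167 and 0.137 over the settings tried, and it was lost without E13 replicate 3, 4 or 5 (1.26, 1.15 and 0.94) or E18 replicate 2, 3 or 5 (1.29, 1.17 and 1.20). Of the complexins, which clamp and release the SNARE complex, Cplx1 was not listed at E11 and measured 2.54, 4.34, 3.04, 0.895 and 1.54 units at E13, then 8.77, 17.8, 18.7, 9.38 and 15 at E18, and 13 to 112 at P70 (median 23.5). E18 lay wholly above E13, and P70 replicate 3 stood at 112 units. Cplx1 rose at E18 (log2 difference 2.14, SE 0.45, limma adjusted p = 0.000722). Its paralog Cplx2 measured 14.5, 11.5, 14.5 and 8.75 units at E11, then 11.3, 16.1, 11.9, 10.7 and 10.4 at E13, then 7.37, 14.4, 15.8, 15.6 and 18.5 at E18, and 9.57 to 25.4 at P70 (median 19.99). All ages overlapped, and its differences of -0.01, 0.19 and 0.36 did not pass (limma adjusted p = 0.981, 0.579 and 0.252).

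Syp, the vesicle membrane protein synaptophysin (chromosome X from 7638471 to 7653256), measured 3.12, 4.32, 4.29 and 6.32 units at E11, then 9.2, 15.7, 9.04, 5.24 and 7.52 at E13, then 39.2, 71.6, 108, 43.1 and 76.9 at E18, and 36 to 135 at P70 (median 66.2). Every E18 library exceeded every E13 library, and E11 and E13 overlapped. The rise at E18 (log2 difference 2.71, SE 0.36, limma adjusted p = 3.68e-06) was next in size to that of Eno2 among the members. Sv2a, a vesicle glycoprotein, measured 0.879, 1.69, 1.21 and 1.26 units at E11, then 6.84, 10.1, 3.93, 2.0 and 0.861 at E13, then 12.4, 19.2, 30.1, 16.5 and 23.7 at E18, and 8.04 to 25.5 at P70 (median 13.5). E18 again lay wholly above E13, where replicates 4 and 5 were near E11 levels. Sv2a rose at E18 (log2 difference 2.12, SE 0.40, limma adjusted p = 0.000199). Sv2b, its paralog, went the other way, at 5.23, 9.33, 4.41 and 7.23 units at E11, then 9.11, 7.77, 11.4, 8.02 and 10.6 at E13, and 3.12, 2.24, 2.62, 2.42 and 4.24 at E18. All E18 libraries lay below all E13 libraries, and it was not listed at P70. Sv2b fell at E18 (log2 difference -1.41, SE 0.22, limma adjusted p = 7.55e-05).

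The synapsins tether vesicles to the cytoskeleton. Syn1 rose from 6.2 ± 3.96 units at E13 to 28.4 ± 8.66 at E18 (SD, n = 5 each; log2 difference 2.19, SE 0.44, limma adjusted p = 0.000335), with no overlap, and measured 24.7 ± 13.7 at P70 (n = 6). Syn2 was the member that moved in all 3 intervals. Its means were 1.19 ± 0.294 units at E11 (n = 4), 4.55 ± 0.739 at E13 and 26.9 ± 9.64 at E18 (n = 5 each) and 10.1 ± 3.15 at P70 (n = 6). It rose by 1.34 and 2.27 (SE 0.26 and 0.24, limma adjusted p = 0.000846 and 1.74e-07) and then fell by 1.31 (SE 0.23, adjusted p = 0.000143). Rab3a, a small GTPase of the vesicle surface, measured 7.95, 11.1, 9.46 and 16.5 units at E11, then 71.2, 104, 64.2, 37.5 and 36.1 at E13, then 98.8, 204, 339.7, 123 and 182 at E18, and 95.1 to 346 at P70 (median 138). Every E13 library exceeded every E11 library, E13 replicate 2 exceeded E18 replicate 1, and E18 and P70 covered the same range. It rose in both embryonic intervals (log2 difference 2.31, SE 0.40, limma adjusted p = 0.000362; log2 difference 1.56, SE 0.38, limma adjusted p = 0.00193) and differed by -0.01 at P70 (adjusted p = 0.986). Rab3c peaked earlier, with 2.94 ± 1.2 units at E11 (n = 4), 12.9 ± 7.84 at E13, 11.2 ± 4.23 at E18 (n = 5 each) and 3.39 ± 0.590 at P70 (n = 6). It rose at E13 (log2 difference 1.69, SE 0.35, limma adjusted p = 0.00159) and fell from E18 to P70 (log2 difference -1.42, SE 0.32, limma adjusted p = 0.0012), where the 2 ages did not overlap.

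At the active zone, the very large scaffold Bsn stood close to the listing floor, at 1.48 ± 0.625 units at E13, 2.83 ± 1.15 at E18 (SD, n = 5 each) and 1.27 ± 0.561 at P70 (n = 6). It fell by P70 (log2 difference -0.74, SE 0.28, limma adjusted p = 0.0431), with adjusted p from 0.0223 to 0.103 over the settings tried. Among adhesion genes, Nrxn3 was not listed at E11 and measured 3.07, 3.52, 0.845, 0.318 and 0.227 units at E13, then 6.21, 16.4, 20.4, 4.96 and 20.1 at E18, and 2.71 to 12.6 at P70 (median 8.47). Its lowest E18 library exceeded its highest E13 library, and it rose at E18 (log2 difference 2.52, SE 0.46, limma adjusted p = 0.000196), a difference that a pseudocount of 0.1 enlarged to 3.43. Nrxn2 rose from 2.35 ± 1.37 to 11.5 ± 5.27 units (n = 5 each; log2 difference 1.86, SE 0.31, limma adjusted p = 5.62e-05), and E18 replicate 3, at 3.73, lay within the E13 range. The neuroligin Nlgn1, the postsynaptic partner of neurexins, rose from 1.19 ± 0.881 to 7.63 ± 1.35 units (log2 difference 2.05, SE 0.29, limma adjusted p = 1.23e-05), or by 2.81 with a pseudocount of 0.1. It then fell to 3.59 ± 1.57 at P70 (n = 6; log2 difference -0.96, SE 0.27, limma adjusted p = 0.00899), with no overlap in either interval.

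The postsynaptic genes had differing courses. Camk2a, the alpha subunit of the calcium-dependent kinase, measured 2.58, 1.35, 0.927 and 3.14 units at E11, then 7.82, 5.62, 17.5, 2.74 and 22.5 at E13, then 4.07, 4.02, 2.1, 3.26 and 6.26 at E18, and 13 to 48.3 at P70 (median 19.3). E13 was spread widely, with replicates 1, 3 and 5 above every E18 library, and all P70 libraries exceeded all E18 libraries. It rose at E13 (log2 difference 1.79, SE 0.46, limma adjusted p = 0.00805), differed by -1.06 at E18 (limma adjusted p = 0.0503, which did not pass) and rose again by P70 (log2 difference 2.25, SE 0.41, limma adjusted p = 0.000209). Camk2a passed as a fall at E18 under 5 settings, among them without E13 replicate 4 (-1.41) or E18 replicate 5 (-1.21). The beta subunit gene Camk2b was not listed at E11 and measured 2.91, 3.58, 2.01, 1.26 and 1.14 units at E13, then 15, 16.8, 21.1, 8.16 and 20.1 at E18, and 4.48 to 19.8 at P70 (median 9.94). It rose at E18 without overlap (log2 difference 2.44, SE 0.35, limma adjusted p = 1.57e-05) and differed by -0.56 at P70 (adjusted p = 0.19). The scaffold Dlg4 measured 0.778, 2.1, 4.02, 0.888 and 4.53 units at E13, then 8.77, 5.45, 1.76, 2.28 and 3.57 at E18, and 1.88 to 13.7 at P70 (median 6.72). All 3 ages overlapped and neither difference passed (0.63 and 0.45, adjusted p = 0.285 and 0.45). Shank1, which links Dlg4 complexes to actin, was listed from E18 and rose from 2.72 ± 1.38 to 6.43 ± 2.48 units (n = 5 and 6; log2 difference 1.02, SE 0.32, limma adjusted p = 0.0196).

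The light neurofilament Nefl (chromosome 14 from 68083863 to 68089095) measured 1.94, 1.76, 4.18 and 6.04 units at E11, then 14.3, 95.9, 40.9, 15.8 and 5.7 at E13, then 13.5, 14, 32.3, 10.8 and 22.2 at E18, and 1.43 to 20.6 at P70 (median 6.91). E13 replicate 2 held the highest value by far, and E13 replicate 5 lay below the highest E11 library. Nefl rose at E13 (log2 difference 2.50, SE 0.67, limma adjusted p = 0.0107), and by 3.38 with edgeR on recovered reads. At E18 and P70 its differences of -0.36 and -1.22 did not pass (limma adjusted p = 0.668 and 0.114). The medium neurofilament Nefm had means of 11.5 ± 4.15 units at E11 (SD, n = 4), 32.3 ± 39 at E13, 10.1 ± 7.03 at E18 (n = 5 each) and 2.23 ± 2.24 at P70 (n = 6), and fell by P70 (log2 difference -1.78, SE 0.56, limma adjusted p = 0.0147). In the GRCm38 annotation Nefl and Nefm lie on opposite strands and share 1108 exon bases, 32.8% of those of Nefl, and since the protocol marks no strand, reads there cannot be assigned to either. Counting these, 15 of the 33 members share exon bases with another gene, from 0.273% of those of Syn1 to 32.8% of those of Nefl. The other gene lies on the opposite strand, where the same limit holds, except for Bsn (0.358%), which shares bases with a gene on its own strand. Uchl1 shares 18.1% of its exon bases, Syp 16.8% and Syt4 14.5%, each with a gene on the opposite strand. The heavy neurofilament Nefh was listed from E18, at 1.82 ± 1.04 and then 1.57 ± 0.672 units, and did not pass (adjusted p = 0.851).

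Map2, a microtubule protein of dendrites, measured 27.2, 46.2, 54.4 and 56.6 units at E11, then 110.4, 142, 97.2, 66.3 and 59.6 at E13, then 71.1, 94.2, 87.7, 72.5 and 98 at E18, and 30.5 to 52.3 at P70 (median 39.2). All E13 libraries lay above all E11 libraries, and all P70 libraries below all E18 libraries. Map2 rose at E13 (log2 difference 1.01, SE 0.25, limma adjusted p = 0.00665) and fell by P70 (log2 difference -1.05, SE 0.23, limma adjusted p = 0.000883), with -0.11 between them (adjusted p = 0.747). Stmn3, a stathmin that destabilizes microtubules, measured 36.7, 88.4, 148 and 215 units at E11, then 524, 817, 416, 292 and 171 at E13, then 387, 794, 909.8, 659.9 and 887 at E18, and 176 to 474 at P70 (median 223). Most E18 libraries stood above most libraries of either neighbouring age, with E18 replicate 1 as the exception. It rose at E13 (log2 difference 1.93, SE 0.45, limma adjusted p = 0.00425) and fell by P70 (log2 difference -1.45, SE 0.41, limma adjusted p = 0.00752).

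Uchl1, an abundant neuronal ubiquitin hydrolase (chromosome 5 from 66676091 to 66687234), measured 304, 280.2, 254 and 338 units at E11, then 937, 1293, 806, 625 and 789 at E13, then 871, 1253, 1045, 1106 and 1658 at E18, and 503 to 842 at P70 (median 659.7). E13 did not overlap with E11, nor P70 with E18. It rose at E13 (log2 difference 1.56, SE 0.20, limma adjusted p = 1.1e-05) with the smallest p of any member in that comparison, and it fell by P70 (log2 difference -0.84, SE 0.18, limma adjusted p = 0.000741). Its difference of 0.42 at E18 did not pass (adjusted p = 0.067), but it passed as a rise with median ratio scaling (0.48, adjusted p = 0.0357), a weight per library (0.51), without E13 replicate 2 (0.57) and without E18 replicate 1 (0.53). Eno2, the neuronal form of the glycolytic enzyme enolase (chromosome 6 from 124760053 to 124769673), measured 0.986, 1.34, 0.581 and 2.22 units at E11, then 5.46, 8.17, 5.31, 1.03 and 1.19 at E13, then 20.1, 30.8, 70.7, 32 and 44.7 at E18, and 22.1 to 85.3 at P70 (median 42.7). Every E18 library exceeded every E13 library, and E18 and P70 overlapped. The rise at E18 was the largest of any member on log2(value + 1) (log2 difference 3.08, SE 0.43, limma adjusted p = 6.15e-06). Of the synucleins, small proteins of axons and terminals, Sncg measured 12.9, 8.26, 17.9 and 25.1 units at E11, then 26.3, 50.5, 19.2, 14.4 and 8.86 at E13, then 32.5, 65.4, 87.2, 35.5 and 95.6 at E18, and 24.3 to 171 at P70 (median 68). Each age overlapped with the next. Sncg rose at E18 (log2 difference 1.46, SE 0.46, limma adjusted p = 0.0116). Sncb was listed from E18, at 27, 41.3, 29, 13.8 and 38.9 units and then 37.6, 21.6, 282, 38, 31.3 and 198 in P70 replicates 1 to 6. Replicates 3 and 6 were far above the other 4 (its library values are given because of that split, seen in the data), and the difference did not pass (1.11, SE 0.60, limma adjusted p = 0.155). With edgeR on recovered reads it passed as a rise (1.83, adjusted p = 0.0295). Rbfox3, the splicing regulator known as the nuclear marker NeuN, had means of 2.16 ± 0.908 units at E11 (n = 4), 4.78 ± 0.615 at E13, 8.0 ± 2.75 at E18 (n = 5 each) and 3.96 ± 2.74 at P70 (n = 6). It fell by P70 (log2 difference -1.02, SE 0.35, limma adjusted p = 0.0261).

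Libraries of an age differed across many members at once. The same ranks were not counted over all genes, so the counts below do not set the members apart from other genes. At E11, replicate 4 had the highest value for 15 of the 23 listed members and replicate 1 the lowest for 12. Fibroblast and meninges genes summed to 874, 625, 567 and 323 units and endothelial and mural genes to 705, 446.5, 359.7 and 269 in E11 replicates 1 to 4, highest in replicate 1 and lowest in replicate 4. Vtn was on both lists, with a mean of 377 ± 193 units at E11 (SD, n = 4). It made up a large part of both sums, which are therefore not separate observations. At E13, replicate 2 was highest for 23 of 29 and replicate 5 lowest for 15. E13 replicate 2 also held the highest values of Th and Ddc, enzymes of dopamine synthesis, at 238 and 335 units against 23.8 to 85.4 and 33.1 to 157 in the other 4. At E18, replicate 1 was lowest for 17 of 33 members, replicates 3 and 5 were highest for 16 and 13, and replicate 4 was highest for 0 and lowest for 9. Genes of serotonin neurons also varied between the E18 libraries: Tph2, the synthesis enzyme, measured 0, 4.54, 11.4, 24.1 and 31.7 units in E18 replicates 1 to 5, and the transporter Slc6a4 0, 15.8, 40.9, 110.4 and 118. Both were at 0 in replicate 1 and highest in replicate 5, but next highest in replicate 4, where 9 members were lowest, and in the middle in replicate 3, where many members were highest. These marker genes were picked out after their values were seen, and their part in the members' differences was not tested.

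At P70 a pair of libraries stood together. For 13 of the 31 listed members, replicates 3 and 6 both exceeded the other 4 libraries. The share of all listed genes with this order was not counted, so the split is not shown to be particular to the members. Snap25 stood at 108, 74.9, 289.7, 95.9, 108 and 283 units in replicates 1 to 6, Rab3a at 120.2, 95.1, 346, 142, 134 and 338, and Eno2 at 22.1, 27.1, 85.3, 46.1, 39.3 and 73.2. The others of this kind were Cplx1, Syp, Sv2a, Syn1, Camk2a, Camk2b, Nefl, Nefm, Stmn3 and Sncb. Replicates 3 and 6 also had the most listed genes at 0, 729 and 1070 of 13291, against 294 to 503 in the other 4, and the part of this in the members' levels was not tested. The dopamine neuron genes ran opposite, with Th at 164, 161, 8.47, 337, 107 and 17.1 units and the dopamine transporter Slc6a3 at 13.1, 13, 0.556, 20.9, 14.7 and 1.56 in the same order: replicates 3 and 6 were the lowest for both. Ddc and Slc18a2 were lowest in replicates 3 and 6 as well. Other transmitter genes went otherwise: Slc32a1 was highest in replicates 3 and 6 (7.19 and 3.64 units). Gad1 and Slc17a7 were highest in replicate 3 (40.9 and 5.55), Gad2 and Slc17a6 in replicate 6 (34.6 and 4.8), and Slc17a8 in replicate 5 (2.5). These genes, too, were chosen after their values were seen, and their part in the members' levels was not tested. With these 2 libraries left out, an alternative chosen after seeing the data, 1 member rose from E18 to P70 and 12 fell. Counts over all genes under this alternative are not given here. Nefl (log2 difference -1.94, limma adjusted p = 0.0166) and Camk2b (-0.96, adjusted p = 0.0243) then passed as falls and Shank1 no longer passed (0.98, adjusted p = 0.0574). The summed level of 13 oligodendrocyte lineage genes was 445, 439, 689, 1061, 634 and 1115 units in replicates 1 to 6, highest in replicates 4 and 6.

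**Figure D3:**
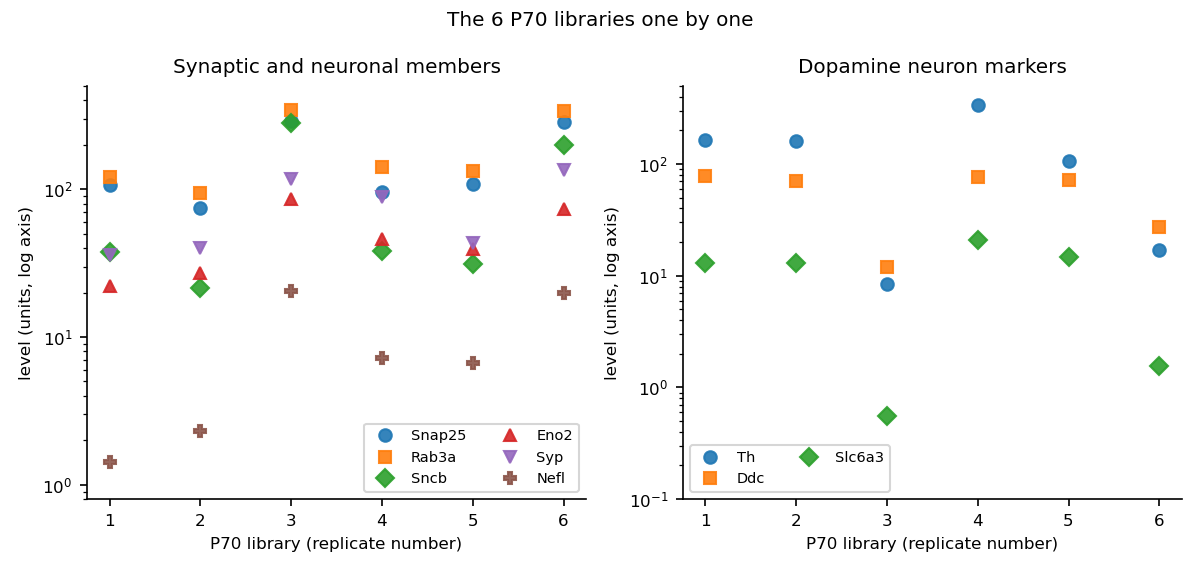
The 6 P70 libraries by replicate number (log axes, units as deposited), with 6 members on the left and 3 dopamine neuron genes on the right. Replicates 3 and 6 are the highest 2 for each of the 6 members and the lowest 2 for Th, Ddc and Slc6a3.

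Other genes of the synapse and axon, on lists set beside the members, gave the following counts. Of 43 further presynaptic genes, 9 rose of 28 tested at E13, 25 rose of 34 at E18 and 1 rose and 18 fell of 36 at P70, with median differences of 0.39, 1.02 and -0.75. The vesicle gene Syngr3 rose from 9.12 ± 6.07 to 72.1 ± 25.4 units between E13 and E18 (log2 difference 2.98, SE 0.42, limma adjusted p = 6.17e-06). Erc1, an active zone scaffold, fell from 9.95 ± 1.92 to 1.69 ± 1.21 units by P70 (log2 difference -2.12, SE 0.26, limma adjusted p = 1.92e-06). Of 28 further postsynaptic genes, 3 rose and 1 fell of 18 tested at E13, 9 rose and 2 fell of 21 at E18 and 4 rose and 9 fell of 24 at P70. The kinase gene Camk2g rose at E18 (log2 difference 1.73, SE 0.16, limma adjusted p = 1.99e-08) and fell by P70 (log2 difference -0.87, SE 0.15, limma adjusted p = 0.000129).

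Among 15 further genes of the axonal cytoskeleton and transport, 3 rose of 12 tested at E13, 5 rose and 1 fell of 12 at E18 and 2 rose and 10 fell of 14 at P70. Mapt, the gene of tau, rose at E13 from 4.3 ± 2.91 to 46.7 ± 36.2 units (log2 difference 3.01, SE 0.49, limma adjusted p = 0.000174) and fell by P70 from 109 ± 50.2 to 12.3 ± 3.52 units (log2 difference -3.00, SE 0.44, limma adjusted p = 2.05e-05). Dense core granule genes, which serve neuropeptide release, gave these counts: 6 rose of 11 tested at E13, 8 rose of 12 at E18, and 3 rose and 2 fell of 14 at P70. The prohormone inhibitor gene Pcsk1n rose by P70 from 197 ± 25.4 to 487 ± 185 units (log2 difference 1.21, SE 0.27, limma adjusted p = 0.00125). Regulators of neuronal expression and splicing had these counts: 6 rose of 15 tested at E13, 1 rose and 6 fell of 17 at E18 and 8 fell of 15 at P70. Ptbp2, a splicing repressor of young neurons, fell at E18 (log2 difference -1.52, SE 0.20, limma adjusted p = 3.67e-06) and again by P70 (log2 difference -2.04, SE 0.20, limma adjusted p = 8.56e-08). Rest, the gene of the repressor REST and chosen here for the motif, was not listed at E11 and stayed between 0.283 and 6.43 units at the other ages.

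Markers of other cells and stages moved over the same ages. Of the proneural and early neuronal genes, 9 rose of 22 tested at E13, 1 rose and 16 fell of 19 at E18 and 1 rose and 10 fell of 16 at P70. Their summed level was 1234 to 2729.5 units (E11), 3313 to 4821 (E13), 1055 to 2126 (E18) and 279 to 427 (P70), over 23, 22, 19 and 16 listed genes. Tubb3, the tubulin of young neurons, rose at E13 from 361 ± 156 to 996 ± 333 units and fell by P70 from 537 ± 159 to 67.5 ± 14.3 units (limma adjusted p = 0.000586 and 1.54e-08). Of the ependymal and motile cilia genes, 3 rose of 12, 14 rose of 14 and 17 rose and 1 fell of 23 in the 3 intervals, and their sum was 52.1 to 133 units (E11), 100.4 to 169.8 (E13), 7070.1 to 10164 (E18) and 18566 to 28548 (P70), over 12, 14, 24 and 23 listed genes. Of the astrocyte genes, 10 rose and 1 fell of 14, 12 rose and 1 fell of 15 and 6 rose and 6 fell of 18, and their sums were 202 to 242 units (E11), 618 to 969 (E13), 5409 to 8563 (E18) and 7293 to 9472 (P70), over 15, 15, 18 and 18 listed genes. Gfap was not listed before E18. Oligodendrocyte lineage genes were listed for 6, 5, 9 and 13 of 15 at the 4 ages, with sums of 10.9 to 31.7 units (E11), 12.5 to 21 (E13), 155 to 215 (E18) and 439 to 1115 (P70). For microglia and macrophage genes, 10 rose of 13 tested at E13, 2 rose of 14 at E18 and 5 rose of 14 at P70. The sum of endothelial and mural genes was 269 to 705 units (E11), 109.7 to 158 (E13), 83.9 to 145 (E18) and 80.4 to 232 (P70), and that of fibroblast and meninges genes 323 to 874 units (E11), 59.7 to 173 (E13), 70.1 to 122 (E18) and 13 to 54.9 (P70). The former ran over 13, 12, 11 and 8 listed genes and the latter over 10, 8, 6 and 4, so the ages do not sum the same genes. A gene is listed at an age only with a mean of at least 1 unit, so no listed gene can be at 0 in all libraries there. The part of these cells in the members' differences was not tested.

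In the cultured spheres, 25 of the 33 members passed the filter on low counts. Between MB and FB spheres 4 were higher in MB (Sv2a, Nrxn2, Nrxn3 and Map2) and 8 were lower (Snap25, Syt4, Syn1, Dlg4, Nefl, Nefm, Stmn3 and Uchl1). Of the 12886 genes tested, 15.3% were higher and 14.3% lower. The median difference was 0.15 for the members and -0.02 for all genes. The 8 members under the filter were Syt1, Sv2b, Rab3c, Rims1, Nefh, Sncb, Sncg and Rbfox3. Rbfox3 reached at most 0.782 CPM in a library, Sncg at most 0.597, and Tubb3 ranged from 1.59 to 8.47. Tubb3 marks young neurons and Rbfox3 mature ones. Tubb3 was chosen here after its values were seen. The proneural and early neuronal list that holds it summed to 1003 to 1074 CPM in MB and 1547 to 1701 in FB. On that list, Btg2 had means of 101 and 254 CPM in MB and FB, Dll1 52.1 and 142, and Gadd45g 83 and 202. Camk2b and Map2 had means of 272 ± 16.9 and 466 ± 27 CPM in MB spheres (SD, n = 5). CPM values are not scaled to gene length, so levels are compared here between spheres and not between genes.

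Syt4 had the largest fall in MB against FB. It measured 3.61, 4.09, 1.88, 0.938 and 4.19 CPM in MB replicates 1 to 5 and 15.3, 15.2, 14.6, 18.1 and 15.3 in FB. The groups did not overlap, and the FB libraries were close together (log2 difference -2.43, SE 0.32, edgeR adjusted p = 8.46e-06). Nefl measured 4.47, 1.27, 0.824, 3.75 and 1.05 CPM in MB and 13.4, 10.1, 11.1, 7.76 and 10.4 in FB, again without overlap (log2 difference -2.24, SE 0.43, edgeR adjusted p = 0.000438). Nefm was lower as well (0.963 ± 0.764 against 4.0 ± 2.42 CPM, n = 5 each; log2 difference -2.07, SE 0.62, edgeR adjusted p = 0.0157), on 1 to 61 counts per library, and its call was lost without FB replicate 3 (-1.80, adjusted p = 0.0547). Reads shared by Nefl and Nefm cannot be assigned to either, as in the captures. Stmn3 measured 14.4, 18.7, 19.6, 19.9 and 27.4 CPM in MB and 41.6, 37.2, 39.9, 33.5 and 33 in FB, and Uchl1 25.4, 26.8, 29.4, 21.7 and 21.5 and 35.8, 41.3, 41.8, 38.3 and 38.9. Neither overlapped between groups (log2 difference -0.90, SE 0.17, edgeR adjusted p = 0.000319; log2 difference -0.67, SE 0.14, edgeR adjusted p = 0.000797).

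Syn1 was lower in MB, at 13.6 ± 3.56 against 27.1 ± 5.55 CPM (log2 difference -1.01, SE 0.21, edgeR adjusted p = 0.000903), with no overlap. Dlg4 measured 33.6, 22.8, 42.3, 23.3 and 24.1 CPM in MB and 38.9, 45.1, 45.2, 58 and 51.5 in FB, where MB replicate 3 reached into the FB range (log2 difference -0.72, SE 0.17, edgeR adjusted p = 0.00319). Snap25 measured 8.08, 5.49, 4.95, 11.6 and 6.55 CPM in MB and 15, 13.9, 16.5, 8.95 and 7.88 in FB. The groups overlapped and the call was near the threshold (log2 difference -0.78, SE 0.29, edgeR adjusted p = 0.0492): it was lost under 10 of 14 settings, among them leaving out MB replicate 1, 2, 3 or 5 or FB replicate 1, 2 or 3 (log2 differences -0.82, -0.70, -0.67, -0.75, -0.70, -0.75 and -0.65). The adhesion gene Nrxn3 had the largest rise. It measured 8.8, 5.21, 14.7, 10.8 and 17 CPM in MB and 1.64, 1.45, 0.973, 3.1 and 2.67 in FB, without overlap (log2 difference 2.50, SE 0.40, edgeR adjusted p = 6.46e-05). Nrxn2 was higher too, at 18.7 ± 2.19 against 12.3 ± 1.81 CPM (log2 difference 0.59, SE 0.19, edgeR adjusted p = 0.0231), a call lost without MB replicate 1 or 3 or FB replicate 2 (0.55, 0.54 and 0.54), and their partner Nlgn1 differed by 0.21 (adjusted p = 0.313). Sv2a measured 38.8, 29.2, 44.3, 42.7 and 48.3 CPM in MB and 21.6, 22.6, 14.1, 9.91 and 15.5 in FB (log2 difference 1.27, SE 0.21, edgeR adjusted p = 8.43e-05). Map2 measured 466, 428, 499, 455 and 482 CPM in MB and 354, 372, 369.5, 328 and 347 in FB (log2 difference 0.38, SE 0.06, edgeR adjusted p = 3.18e-05), a small difference between tight groups. Neither gene overlapped between groups.

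The other 13 members tested did not pass. They included the vesicle genes Vamp2 (0.13, edgeR adjusted p = 0.535), Rab3a (0.19, adjusted p = 0.332) and Syp (-0.39, adjusted p = 0.453), and both kinase genes, Camk2a (-0.45, adjusted p = 0.101) and Camk2b (0.15, adjusted p = 0.0766). Camk2b passed without MB replicate 1 (0.18), and Eno2, which differed by 0.87 (adjusted p = 0.0899), passed without MB replicate 2 (1.07) or FB replicate 4 (1.21). Among the lists set beside the members, 8 further presynaptic genes were higher and 7 lower of 35, and 5 and 4 of 23 postsynaptic genes. Rab3b, a relative of Rab3a, was lower (log2 difference -1.07, SE 0.06, edgeR adjusted p = 1.56e-10), and the axonal surface gene Thy1 was higher (log2 difference 2.98, SE 0.16, edgeR adjusted p = 4.67e-11). Proneural genes were lower in 9 and higher in 1 of 13, with sums of 1003 to 1074 CPM in MB and 1547 to 1701 in FB. Oligodendrocyte lineage genes were lower in 7 and higher in 2 of 13 (3026 to 3687 and 3738 to 4236 CPM), and astrocyte genes higher in 10 and lower in 5 of 17 (11549 to 12192 and 6617 to 7408 CPM). Ependymal genes summed to 206 to 225 and 69.5 to 92.3 CPM. Their part in the members' differences was not tested.

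**Figure D4:**
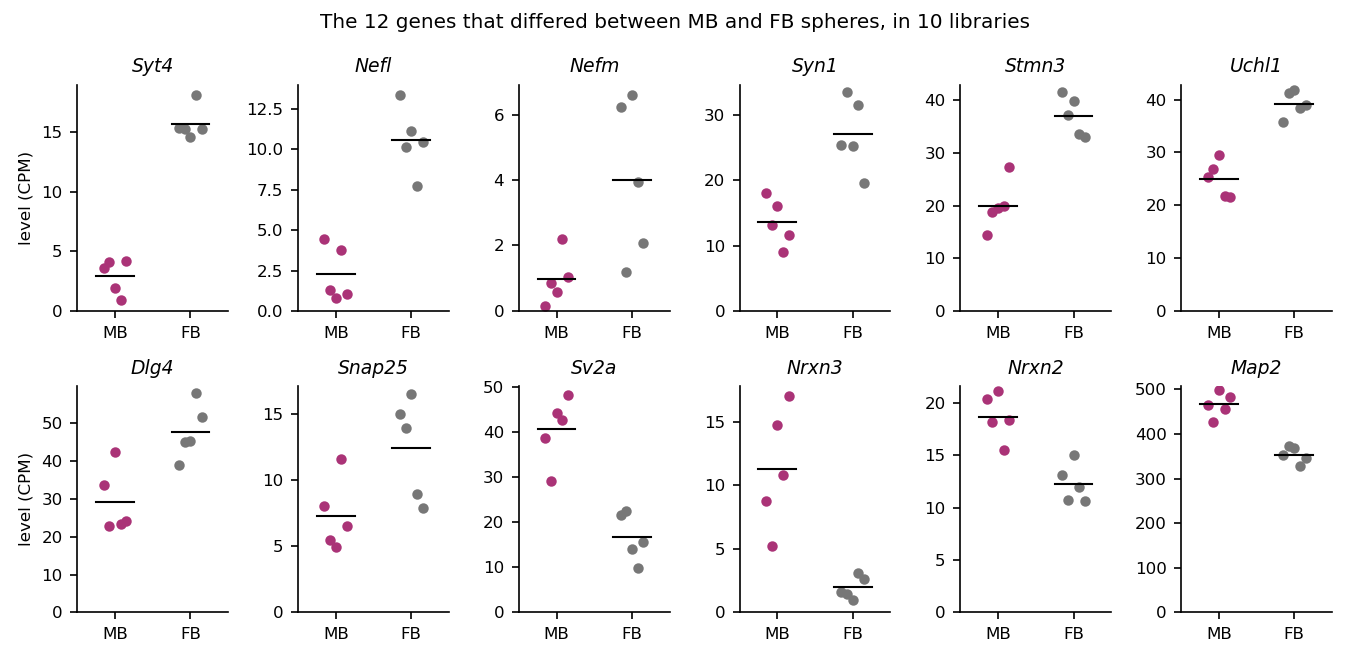
Levels (CPM, axes from 0) of the 12 members that differed between MB and FB spheres, 1 point per library and a black line at the mean of each group of 5. The first 8 panels are lower in MB and the last 4 higher, and the groups overlap for Nefm, Dlg4 and Snap25.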

How the data were processed

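Bulk RNA-seq was deposited for 30 libraries: 20 laser captures and 10 cultured spheres. The captured values were deposited by the authors in a unit that no source used here states; per the file's values they behave as RPKM, and genes averaging under 1 unit at an age are blank there. The sphere table holds raw counts deposited by the authors, per the labels. The submitters' processing notes list builds mm10 and GRCm39 and the tools STAR 2.3, Salmon 1.6.0 and DESeq2 1.34.0 without roles; the counting step was not given in the sources used here.

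Of 15139 captured lines, 142 shared 11 repeated symbols and were left out. Captured libraries were compared by limma-trend (limma 3.58.1, R 4.3.3) on log2(value + 1), fitting the 20 libraries jointly, with Benjamini-Hochberg adjustment over genes listed at both ages (threshold 0.05). A fold change on this scale understates that of low genes. The design foresaw RPKM or counts, and the test for normalized values was used. Spheres were compared with edgeR 4.0.16 (quasi-likelihood, TMM scaling, filterByExpr). Whole reads behind the captured values were recovered for 11465 genes (76.4%, within 0.01 of a whole number), 19 of the 33 members among them. Recovery and tests were tested on simulated data.

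The members and all lists were chosen with earlier results of these data known. Values in every library were given for members that passed in a comparison and reached a mean of 20 units or 10 CPM (at most 14, highest means first) and for the largest and smallest difference of each comparison. From each other list, at most 3 genes per comparison with the smallest adjusted p were eligible, at 5 units or 10 CPM. Alternatives were a pseudocount of 0.1, a minimum mean of 5 units, median ratio scaling, a fit of only the 2 ages, a weight per library, a replicate block, each library left out, edgeR on recovered reads and P70 without 2 libraries; for spheres, DESeq2 1.42.0, median ratio size factors, no filter, the block and each library left out. Coordinates are from GRCm38 (GENCODE vM21), promoters from RefSeq on GRCm38.p6.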

Additional observations from a re-analysis of the deposited data

Results flagged for a closer look

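In groups of 4 to 6 libraries, a member's highest or lowest library was compared with the rest of its group by Dixon's gap ratio at its 95% critical value. Of 182 groups, 12 held a library that stood apart, and chance alone gives about 1 in 20. Of the 12, 3 came from E13 replicate 2, which was highest for Stx1a (19.4 units, the others 6.01 to 7.34), Cplx2 (16.1, the others 10.4 to 11.9) and Nefm (101, the others 4.58 to 23.5). E13 replicate 1 was lowest for Syn2 at 3.24 units, the others lying between 4.76 and 5.02.

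At P70, replicate 3 was highest for Cplx1 (112 units, the others 13 to 40.01) and replicate 1 for Sncg (171, the others 24.3 to 73.4). In the spheres, FB replicate 4 was highest for Syt4 (18.1 CPM, the others 14.6 to 15.3), MB replicate 1 for Syp (10.5, the others 4.19 to 5.35) and MB replicate 3 for Shank1 (3.30, the others 1.70 to 2.11). MB replicate 2 was lowest for Eno2 at 4.23 CPM, the others lying between 11.2 and 12.4. MB replicate 5 held the only counts of Nefh in its group (1.57 CPM) and FB replicate 5 the only counts of Sncb (0.121 CPM). No cause was tested for any of these values.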

How the results depend on the processing

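No member changed sign among called results under any alternative run. Each library left out in turn gave 9 to 13 members higher and 0 lower at E13 against E11, 16 to 19 higher and 1 to 2 lower at E18 against E13, 1 to 3 higher and 7 to 10 lower at P70 against E18, and 3 to 5 higher and 6 to 8 lower in MB against FB spheres. Over all genes, the same fits gave 794 to 1006 higher and 916 to 1207 lower at E13. They gave 2304 to 2590 higher and 2610 to 2831 lower at E18. At P70 the ranges were 1860 to 2203 higher and 2506 to 3006 lower, and in MB spheres 1805 to 1947 and 1582 to 1746. A weight per library gave 18 members higher at E13 (all genes: 2218 higher, 2618 lower), 2 lower at E18 and 1 higher at P70. A fit of only the 2 ages gave 1639 genes higher and 2172 lower at E13. A minimum mean of 5 units gave 2 members lower at E18, and median ratio scaling 4 higher at P70. With edgeR on recovered reads, 16 members could be tested at E18, of which 9 were higher and 0 lower, and 1306 of 9071 genes were lower at P70; the members without whole reads were not tested there. Leaving out P70 replicates 3 and 6 together gave 1 member higher at P70.

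Deviations of same-numbered libraries from their group means correlated between -0.146 and 0.239 in the captures and between -0.009 and 0.038 in the spheres. Such values cannot show whether same-numbered libraries shared an animal, a culture or a day, which the labels do not give. With the replicate number as a block, 9 members were higher at E13, 16 higher and 1 lower at E18, 1 higher and 10 lower at P70, and 4 higher and 6 lower in MB spheres. Counts over all genes with the block are not given here, so these counts do not set the members apart from other genes. At P70 the block ended the calls of Bsn (-0.78, limma adjusted p = 0.0752) and Shank1 (0.95, adjusted p = 0.115) and added Nefl (-1.50, adjusted p = 0.039). Low counts limit the precision where few reads were recovered, as for Nefm at P70 (2 to 46), Eno2 at E11 (8 to 26) and Nefh at P70 (8 to 26), and for the 8 members under the count filter in the spheres.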
